A study of Homo sapiens with 54 samples.

Results

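Chemokines are small secreted proteins that attract cells along a gradient, and their genes were followed here in BT549, an established human line of triple-negative breast cancer. The members are 9 genes: CXCL1, CXCL2, CXCL3, CXCL8, CXCL12, CXCL13, CXCL16, CCL2 and CCL20. The rule goes by gene symbol and uses no measured value, although the set was drawn up with earlier results of these data known. All 9 were found among the 26517 gene symbols in each table of raw counts. CXC and CC name the spacing of the first cysteines of the protein. CXCL1, CXCL2, CXCL3 and CXCL8 carry the ELR amino acids before the first cysteine and act on the receptors CXCR1 and CXCR2 of neutrophils. Their genes, like CCL2 and CCL20, are textbook targets of the transcription factors NF-kB and AP-1, and glucocorticoids are known to lower such genes through the glucocorticoid receptor.

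The study asks how this receptor and the SWI/SNF chromatin remodelling complex act together in these cells. It holds 54 RNA sequencing libraries in 18 groups of 3, from 3 experiments that were fitted apart. In the GATA6 experiment (12 libraries) cells received siGATA6, a siRNA pool against the transcription factor GATA6, or the control siRNA siCtl for 72 h, and then dexamethasone (DEX, 500 nM), a synthetic glucocorticoid, for 2 h or vehicle (Veh). The 4 groups are siGATA6 with DEX, siGATA6 with vehicle, siCtl with DEX and siCtl with vehicle. In the BRM014 experiment (24 libraries) cells received DEX with BRM014, BRM014, DEX with DMSO, or DMSO, each for 4 h and for 24 h. BRM014 (10 µM) inhibits the ATPases of SWI/SNF, and DMSO is its solvent. The 24 h time is given in the sample labels, whereas the shared protocol mentions DEX for 2 h or 4 h and BRM014 for 4 h. In the AP-1 experiment (18 libraries) cells received siFRA1, against FRA1 (the product of FOSL1), siJUN or siCtl, each with DEX or vehicle, and the labels give no time for DEX. All groups are wild type and of the same line. MDA-MB-231, a second line named in the series' design, was not analysed here.

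The siRNA treatments lowered their targets without removing them. GATA6 averaged 10.3 ± 0.164 CPM in siGATA6 and 85.2 ± 6.51 CPM in siCtl cells with vehicle (SD, n = 3 each), where CPM is counts scaled to the TMM-adjusted library total. FOSL1 averaged 46.8 ± 5.22 CPM in siFRA1 and 172 ± 11.6 CPM in siCtl cells, and JUN 99.0 ± 13.1 CPM in siJUN and 280.1 ± 12.0 CPM in siCtl cells, each with vehicle. The 5 mesenchymal markers together were at 3001 to 4366 CPM over all libraries, among them VIM (1380 to 2673 CPM) and FN1 (292 to 1596 CPM). SPARC, another of them, was at 197 to 255.4 CPM with BRM014 and at 896 to 1053 CPM with DMSO at 24 h. The 5 epithelial markers together were at 6.96 to 35.7 CPM, with CDH1 up to 16.6, KRT19 up to 17.8 and EPCAM up to 0.365 CPM. Their sum after 24 h was 6.96 to 10.3 CPM with DEX and BRM014, 8.26 to 11.2 CPM with BRM014, 8.43 to 9.29 CPM with DEX and DMSO and 23.7 to 26.5 CPM with DMSO, so it was lowest in the groups in which several chemokine genes were also low. At 4 h it was 33.4 to 35.7 CPM with DEX and DMSO and 25.0 to 29.6 CPM with DMSO. The hormone receptor genes ESR1 and PGR stayed at or under 0.163 and 0.0503 CPM, while ERBB2, which encodes HER2, was at 51.7 to 92.0 CPM. The T-cell gene CD3E did not exceed 0.0582 CPM, the B-cell gene MS4A1 was at 0 in every library, and PTPRC, expressed by all leukocytes, did not exceed 2.16 CPM. The 6 immune markers together, of which CD68 made up most, ranged from 14.4 to 36.8 CPM over all libraries, and the 3 endothelial markers from 0 to 0.623 CPM. After 24 h the immune sum was 14.4 to 15.5 CPM with DEX and BRM014, 15.4 to 17.2 CPM with BRM014, 15.9 to 19.6 CPM with DEX and DMSO and 16.7 to 21.7 CPM with DMSO. The part of these markers and their sums in the results was not tested. A library held 12888724 to 30530736 counts for GATA6, 13243316 to 29339329 for BRM014 and 10186607 to 16352524 for AP-1.

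In the BRM014 experiment some libraries stood apart from their own group. A first component of the deviations from the group means took up 49.3% of their variance, against 20.1% in the GATA6 and 25.6% in the AP-1 experiment. Library 2 was at its upper end in 7 of the 8 groups, with scores of 54.4 for DEX and DMSO, 47.1 for BRM014 and 41.7 for DEX and BRM014 at 24 h and 30.0 for DEX and BRM014 at 4 h, while all other libraries lay between -45.7 and 11.6. The mesenchymal marker ZEB1 was at 4.90 to 70.3 CPM within the group of DEX and DMSO at 24 h and at 9.28 to 103.9 CPM within that of BRM014 at 24 h. Tests of this experiment were repeated without the libraries numbered 2, a choice made after seeing the data, and every call lost is named beside its result.

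Adjusted p-values below come from edgeR's quasi-likelihood test, adjusted after Benjamini and Hochberg across every gene tested in an experiment, and a gene is called, and said to rise or fall, at an adjusted p under 0.05. Log2 fold changes (log2FC) are given with their standard error (SE), and 3 values in a row are libraries 1, 2 and 3 of a group. Of the 9 members, 6 passed the filter on low counts in the GATA6, 8 in the BRM014 and 7 in the AP-1 experiment. CXCL12, which encodes the ligand of CXCR4, failed it in all 3, with 4, 19 and 9 counts in total. CXCL13 failed it in the GATA6 and AP-1 experiments (24 and 5 counts) and CCL20 in the GATA6 experiment (91 counts). CXCL13 passed in the BRM014 experiment through the groups with DEX and DMSO, so its presence among the genes tested there depends on its response. The same holds for CCL20 there, which reached 10 counts in libraries 1 and 3 of DEX and DMSO at 4 h (20 and 17), in libraries 1 and 2 at 24 h (22 and 19), and elsewhere only in library 1 of DMSO at 4 h and at 24 h (10 and 12).

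The ELR genes lie close together on chromosome 4 (GRCh38, GENCODE v29). CXCL8 spans 73740506 to 73743716 on the plus strand, CXCL1 73869393 to 73871242 on the plus strand, CXCL3 74036589 to 74038807 on the minus strand and CXCL2 74097035 to 74099293 on the minus strand. The gaps between neighbours in this order are 125676, 165346 and 58227 bases. CXCL13, whose product attracts B cells through CXCR5, lies on the same chromosome at 77511753 to 77611834, a further 3412459 bases from CXCL2. CCL2 (34255218 to 34257203, plus) and CXCL16 (4733526 to 4739922, minus) are on chromosome 17, CCL20 (227805739 to 227817564, plus) is on chromosome 2 and CXCL12 (44370165 to 44386493, minus) is on chromosome 10. All are protein coding. CXCL16 overlaps MED11 on the opposite strand, and since no strand setting is given in the sources used here, reads of the pair cannot be told apart. The coding sequences of CXCL1 and CXCL2 were 93.5% identical, those of CXCL2 and CXCL3 94.4% and those of CXCL1 and CXCL3 90.7%. Exact 50-base words shared with CXCL2 made up 5.73% of the CXCL1 transcript and words shared with CXCL3 made up 4.62% of the CXCL2 transcript. Some of their reads could thus be split, misplaced or lost in counting. Since CXCL1 averaged 197 CPM in DMSO cells at 4 h, CXCL2 19.8 and CXCL3 5.57, misplaced CXCL1 reads could weigh more in the other 2 genes. Their part in the counts was not tested.

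The 250 bases before the RefSeq start of transcription (GRCh38.p14) are shown for the 4 ELR genes, which mostly moved together with DEX, and for CXCL13, which moved the other way; 7 of the 9 members had an entry in this table, CXCL16 and CCL2 had none. They run 5′ to 3′ on the strand of the gene, with CXCL1 at chr4:73869143-73869392 (plus), CXCL2 at chr4:74099196-74099445 (minus), CXCL3 at chr4:74038690-74038939 (minus), CXCL8 at chr4:73740319-73740568 (plus) and CXCL13 at chr4:77511503-77511752 (plus). Capitals mark the NF-kB word GGAATTTCC and, in CXCL8 alone, the AP-1 word TGANTCA upstream of it.
CXCL1: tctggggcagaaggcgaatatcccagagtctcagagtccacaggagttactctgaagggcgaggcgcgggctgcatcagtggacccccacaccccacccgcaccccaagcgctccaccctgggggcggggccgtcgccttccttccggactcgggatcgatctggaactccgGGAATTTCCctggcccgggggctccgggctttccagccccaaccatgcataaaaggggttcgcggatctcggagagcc
CXCL2: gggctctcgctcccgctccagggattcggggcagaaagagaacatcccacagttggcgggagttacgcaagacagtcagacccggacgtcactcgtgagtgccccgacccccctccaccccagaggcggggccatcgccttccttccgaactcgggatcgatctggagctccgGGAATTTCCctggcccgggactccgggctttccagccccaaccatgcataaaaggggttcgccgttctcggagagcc
CXCL3: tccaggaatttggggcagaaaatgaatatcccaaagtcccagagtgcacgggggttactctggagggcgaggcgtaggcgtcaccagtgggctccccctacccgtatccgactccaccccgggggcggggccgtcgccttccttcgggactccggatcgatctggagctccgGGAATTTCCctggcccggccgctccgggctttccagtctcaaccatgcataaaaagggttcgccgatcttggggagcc
CXCL8: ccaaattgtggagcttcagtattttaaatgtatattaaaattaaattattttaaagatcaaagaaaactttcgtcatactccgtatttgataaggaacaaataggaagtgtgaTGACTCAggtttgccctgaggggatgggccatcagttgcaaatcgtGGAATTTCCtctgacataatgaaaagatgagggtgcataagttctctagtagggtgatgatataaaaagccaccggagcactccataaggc
CXCL13: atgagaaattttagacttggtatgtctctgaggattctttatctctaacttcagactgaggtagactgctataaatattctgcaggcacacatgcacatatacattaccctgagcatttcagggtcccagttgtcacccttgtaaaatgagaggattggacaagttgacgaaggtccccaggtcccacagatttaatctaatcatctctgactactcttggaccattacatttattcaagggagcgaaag

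The NF-kB word, searched on both strands, stood in each ELR gene once, beginning 78 bases before the start in CXCL1 and CXCL3, 77 in CXCL2 and 91 in CXCL8. Over all RefSeq promoters of 300 bases (250 before the start and 50 after), 162 of 35116 held it, a share of 0.461%. This spelling was absent from the windows of CXCL12, CXCL13 and CCL20, and other spellings of NF-kB sites were not searched. Among the 7 the AP-1 word stood in CXCL8 alone, 137 bases before the start, and in 7.71% of all promoters. AGAACA, a core word of glucocorticoid receptor sites, stood in CXCL2 alone (14.8% of all), and a full palindromic glucocorticoid response element in none of the 7 (0.0911% of all). TATAAA began 31 bases before the start in CXCL8, 29 in CCL20 and, much further off, 181 in CXCL13 (11.5% of all). These are matches of letters in a window, and a missing match says only that the letters are not there.

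Messenger RNAs of inflammatory genes often carry AU-rich stretches in the 3′ untranslated region, which decay factors such as ZFP36 bind. The pentamer ATTTA was counted 5 times in that region of CXCL1, 10 times in CXCL2, 7 times in CXCL3 and 9 times in CXCL8. Per kilobase this came to 7.08, 13.9, 10.4 and 7.19 copies in these genes, against a median of 1.55 over 17337 genes with a region of at least 100 bases. CXCL2 was as dense as or denser than all but 0.456% of those genes and CXCL3 than all but 1.08%. CCL20 held it 3 times in a shorter region, 6.65 copies per kilobase and nearly as dense as CXCL1 (4.78% of genes were as dense as CCL20 and 3.90% as CXCL1). CXCL13 also held it 3 times (3.77 per kilobase), and CCL2, CXCL12 and CXCL16 once each (2.66, 1.71 and 1.02 per kilobase).

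Per kilobase of exon, CXCL1 was by far the most abundant member in control cells. The length used joins the exons of all annotated transcripts of a gene. For CXCL3 (2219 bases) and CCL2 (1986 bases) it covers the whole gene, so their values per kb may be too low beside the others. In DMSO cells at 4 h it averaged 152 ± 9.92 CPM per kb, against 13.2 ± 1.33 for CXCL2, 12.9 ± 4.99 for CXCL8, 2.51 ± 0.240 for CXCL3, 1.55 ± 0.363 for CXCL16, 0.555 ± 0.127 for CCL2 and 0.154 ± 0.110 for CCL20 (SD, n = 3 each). CXCL2 and CXCL8 did not differ beyond their spread. In siCtl cells with vehicle of the AP-1 experiment, CXCL1 averaged 315 ± 18.3 and CXCL8 24.3 ± 4.55 CPM per kb, followed by CXCL2 at 16.1 ± 0.563, and CCL2 at 3.31 ± 0.673 did not differ from CXCL3 at 3.09 ± 0.612 beyond the spread. With DEX and DMSO at 24 h, however, CXCL13 averaged 44.3 ± 23.3 and CXCL1 52.2 ± 5.58 CPM per kb, which did not differ beyond the spread. Levels of the members were not compared between experiments, since the labels give total RNA for the GATA6 and BRM014 and polyA RNA for the AP-1 experiment.

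DEX lowered CXCL8, which encodes the neutrophil attractant interleukin 8, in all 7 comparisons made without BRM014. At 2 h CXCL8 was at 7.34, 5.998 and 6.88 CPM in siCtl cells with DEX and at 37.3, 38.4 and 39.7 CPM in siCtl cells with vehicle. The groups were far apart and the gene fell 5.74-fold (log2FC -2.52, SE 0.187, adjusted p = 1.87e-06). At 4 h it was at 5.22, 2.79 and 2.90 CPM with DEX and DMSO and at 42.4, 21.8 and 23.9 CPM with DMSO (8.12-fold lower, adjusted p = 1.92e-04). In both groups library 1 stood highest, a pattern seen in 6 of the 8 groups of that experiment for this gene. At 24 h CXCL8 was at 5.98, 3.13 and 5.09 CPM with DEX and DMSO and at 44.5, 23.9 and 16.4 CPM with DMSO (5.99-fold lower, adjusted p = 5.39e-04). In the AP-1 experiment the log2FC was -2.34 (SE 0.240) in siCtl, -2.36 (SE 0.218) in siFRA1 and -2.26 (SE 0.230) in siJUN cells, and it was -2.40 (SE 0.182) in siGATA6 cells. In none of the 7 comparisons did the libraries with and without DEX overlap. Since these are bulk libraries, fewer cells with the transcript and less of it per cell cannot be told apart.

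**Figure D1:**
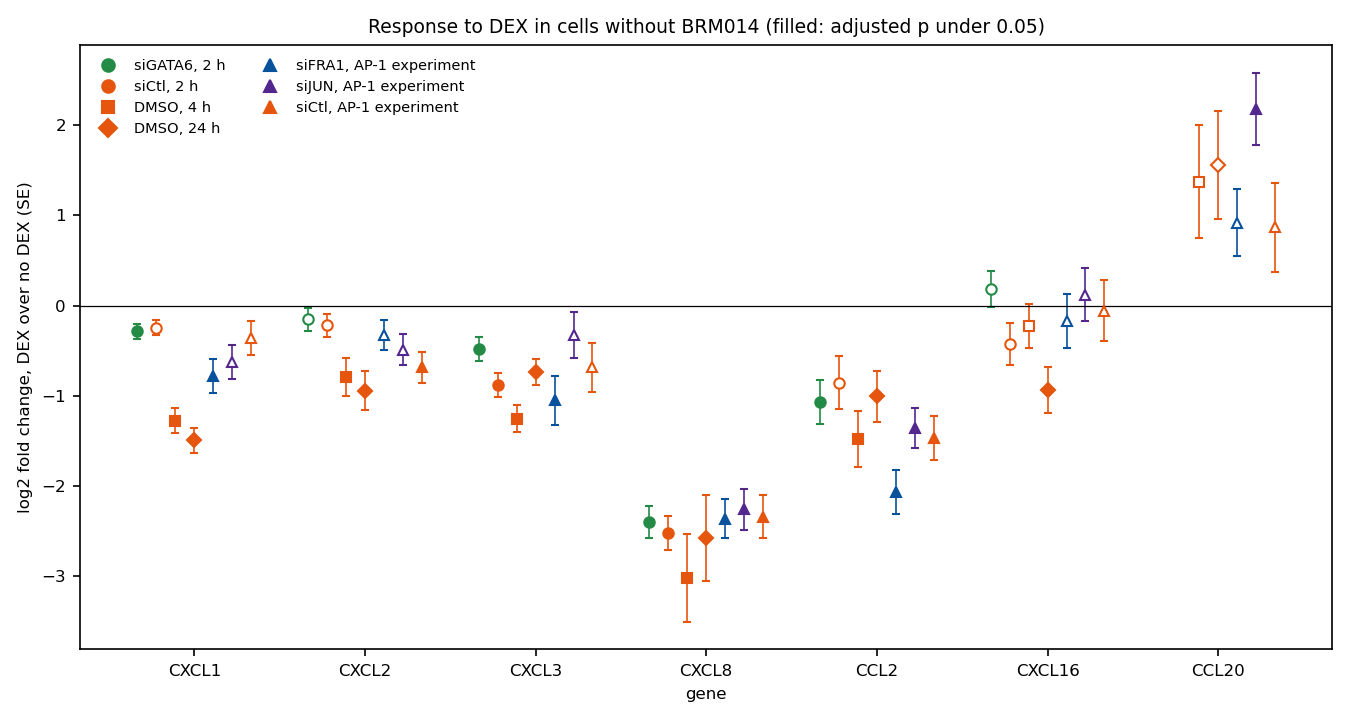
Log2 fold change of DEX over no DEX (vertical axis, bars are SE) for 7 chemokine genes (horizontal axis) in the 7 comparisons without BRM014, with filled symbols called at an adjusted p under 0.05 and open symbols not. All 7 points of CXCL8 lie between -3.02 and -2.26 and all are filled, while CCL20 lies above 0 in the 5 comparisons in which it was tested.

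CXCL1, CXCL2 and CXCL3, which encode the GRO chemokines, fell less and not in every comparison. CXCL1 was at 66.8, 81.3 and 95.8 CPM with DEX and DMSO at 4 h and at 212, 187 and 192 CPM with DMSO (2.42-fold lower, SE of the log2FC 0.135, adjusted p = 4.95e-07). By 24 h CXCL1 was at 62.4, 75.9 and 64.6 CPM with DEX and DMSO and at 228, 190.1 and 154 CPM with DMSO (2.82-fold lower, adjusted p = 5.25e-08). Every library with DEX stood below every library without it at both times. After 2 h in siCtl cells the same gene was at 233, 250.3 and 219 CPM with DEX and 267.1, 297.8 and 268.1 CPM with vehicle, which did not pass (log2FC -0.25, SE 0.0847, adjusted p = 0.0760). With the replicate number as a block it did, at the same log2FC (adjusted p = 0.0311), as it did by DESeq2 (0.01004) and with library totals alone (0.0210). In siGATA6 cells CXCL1 fell by 0.29 on the log2 scale at 2 h (adjusted p = 0.0392), a call that did not hold without siGATA6 vehicle library 1 or 3 or siGATA6 DEX library 2 or 3 (adjusted p = 0.0512 to 0.148) or the filter (0.106).

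CXCL3 was at 2.25, 2.16 and 2.56 CPM with DEX and DMSO at 4 h and at 5.37, 5.16 and 6.17 CPM with DMSO (2.39-fold lower, adjusted p = 2.23e-06). After 24 h the gene was at 2.94, 3.62 and 3.04 CPM with DEX and DMSO and at 6.49, 5.46 and 4.15 CPM with DMSO (1.67-fold lower, adjusted p = 6.40e-04). Neither pair of groups overlapped. At 2 h CXCL3 fell 1.84-fold in siCtl cells (adjusted p = 4.42e-05) and 1.40-fold in siGATA6 cells (adjusted p = 0.0131). The siGATA6 value lost its call without siGATA6 vehicle library 2 (adjusted p = 0.0504) or siGATA6 DEX library 3 (0.1103) and by DESeq2 (0.0542). CXCL2 fell 1.73-fold at 4 h (adjusted p = 0.0150) and 1.93-fold at 24 h (adjusted p = 0.00238) with DMSO, and its 4 h value did not pass without DMSO library 3 (adjusted p = 0.0618) or DEX and DMSO library 1 (0.0889). Without the libraries numbered 2, the 4 h and 24 h values of CXCL2 kept their direction (log2FC -0.87 and -0.92) but not their calls (adjusted p = 0.164 and 0.0888). At 2 h the CXCL2 log2FC was -0.22 (SE 0.127) in siCtl and -0.15 (SE 0.125) in siGATA6 cells, and the groups overlapped.

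Among the AP-1 libraries DEX lowered CXCL2 in siCtl cells, to 14.1, 17.2 and 13.7 CPM against 23.3, 25.0 and 24.2 CPM with vehicle (1.61-fold, adjusted p = 0.0173). That call did not hold without siCtl vehicle library 2 or 3 or siCtl DEX library 1 or 3 (adjusted p = 0.0553 to 0.0951). In siFRA1 cells CXCL1 and CXCL3 fell 1.72-fold and 2.07-fold (adjusted p = 0.0266 and 0.0209). The CXCL1 value was lost without any of 5 libraries, all but siFRA1 vehicle library 2 (adjusted p = 0.0544 to 0.125) or the filter (0.0583), and the CXCL3 value without siFRA1 vehicle library 1 or 3 or siFRA1 DEX library 2 (adjusted p = 0.105 to 0.134). In siJUN cells CXCL1 (log2FC -0.62, adjusted p = 0.0818) and CXCL2 (-0.49, adjusted p = 0.121) did not pass, but did with the replicate block (adjusted p = 0.0467 and 0.0232). Without siJUN vehicle library 2 both genes passed too (adjusted p = 0.0262 and 0.00502), and CXCL1 also without siJUN DEX library 1 (0.0160) or by DESeq2 (0.00517).

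CCL2, which encodes the monocyte attractant MCP-1, was called lower with DEX in 6 of the 7 comparisons without BRM014. It was at 0.461, 0.423 and 0.299 CPM with DEX and DMSO at 4 h and at 1.38, 0.881 and 1.05 CPM with DMSO (2.79-fold lower, adjusted p = 0.00201). In siFRA1 cells it was at 1.67, 2.14 and 2.40 CPM with DEX and at 8.72, 8.55 and 8.97 CPM with vehicle (4.21-fold lower, adjusted p = 3.28e-06). The DEX libraries were below the others in all 7. The exception was siCtl at 2 h, at 1.07, 0.672 and 1.06 CPM with DEX against 1.54, 1.29 and 1.99 CPM with vehicle (log2FC -0.86, SE 0.294, adjusted p = 0.0501). It passed with the replicate block (adjusted p = 0.0243) and without siCtl vehicle library 2 (0.0360), and likewise with DESeq2's size factors (0.0493), without the filter (0.0305) and with library totals alone (0.0355). In siGATA6 cells CCL2 fell 2.11-fold at 2 h, which was lost without siGATA6 DEX library 3 (adjusted p = 0.0513). With DMSO for 24 h CCL2 fell 2.01-fold (adjusted p = 0.0118), lost without library 1 of DMSO or of DEX and DMSO (adjusted p = 0.0575 and 0.0629).

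CXCL16, which encodes a membrane-bound chemokine and scavenger receptor, was called in a single comparison of the 7. At 24 h it was at 2.53, 2.25 and 1.82 CPM with DEX and DMSO and at 5.13, 3.11 and 4.56 CPM with DMSO (1.92-fold lower, adjusted p = 0.00899). The groups did not overlap, but without DMSO library 1 the adjusted p was 0.0520. CCL20, which encodes the ligand of CCR6, was called in 1 of the 5 comparisons in which it was tested, and was higher there. In siJUN cells it was at 4.44, 1.95 and 3.10 CPM with DEX and at 1.03, 0.586 and 0.394 CPM with vehicle (4.53-fold higher, adjusted p = 9.48e-04), with no overlap. Its log2FC was 0.87 (SE 0.492) in siCtl and 0.92 (SE 0.370) in siFRA1 cells and 1.38 (SE 0.624) with DMSO at 4 h, none called. At 24 h with DMSO it was 1.56 (SE 0.594, adjusted p = 0.0624), and 1.57 with the replicate block (adjusted p = 0.0167). That value also passed without DMSO library 1 or DEX and DMSO library 3 (adjusted p = 0.0338 and 0.0299). These values with DMSO are of a gene that entered the test through the same DEX libraries.

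CXCL13 rose from near absence with DEX. At 4 h the libraries held 39, 68 and 67 counts with DEX and DMSO and 2, 0 and 0 with DMSO, a ratio of 81.5 in summed CPM (95% interval 22.2 to 678, adjusted p = 3.29e-05). At 24 h CXCL13 stood at 100.2, 54.1 and 35.6 CPM with DEX and DMSO and at 0, 0.0887 and 0 CPM with DMSO, 3874 counts against 2 and a ratio of 2660 (interval 736 to 21972, adjusted p = 1.21e-09). Such intervals take in counting error alone, and no molecular identifiers were used, so reads are not independent molecules. Where a group was at 0, the ratios below set it to 3 counts and take in no counting error of the other group. At 2 h, siCtl cells held 4, 3 and 5 counts with DEX and 0, 0 and 1 with vehicle, a ratio of 13.0 (interval 1.93 to 557), and siGATA6 cells held 1, 4 and 3 with DEX and 1, 1 and 1 with vehicle (ratio 2.77, interval 0.665 to 16.2). Of the AP-1 libraries, all 9 with vehicle were at 0 and the 9 DEX libraries held 5 counts in all. Between the DEX and DMSO groups themselves CXCL13 was 24.4-fold higher at 24 h than at 4 h (log2FC 4.61, SE 0.434, adjusted p = 4.75e-07), in a comparison that was added after the data were seen.

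The counts of members called with DEX stand beside the share of all genes called as follows. In siGATA6 cells 4 of 6 tested members fell and none rose (15.9% of all genes called in either direction), and in siCtl cells at 2 h 2 fell and none rose (15.9%). With the replicate block the siCtl count was 4. With DMSO 5 of 8 fell and 1 rose at 4 h (12.5%), and 6 fell and 1 rose at 24 h (25.6%). The member that rose with DMSO was CXCL13, which passed the filter through that response. In the AP-1 experiment 4 of 7 fell in siFRA1 cells (4.93%), 2 fell and 1 rose in siJUN cells (5.69%) and 3 fell in siCtl cells (5.51%). The siJUN count was 5 with the replicate block. The median log2FC of the tested members was -0.38 and -0.64 in siGATA6 and siCtl cells at 2 h, -1.02 and -0.94 with DMSO at 4 h and 24 h, and -0.78, -0.49 and -0.68 in siFRA1, siJUN and siCtl cells of the AP-1 experiment. The median of all genes tested lay between -0.02 and 0.01 in each.

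In edgeR's test of the difference between the DEX effects at 24 h and at 4 h with DMSO, no member was called (8.9% of all genes called). A single member had an unadjusted p under 0.05 there. For CXCL13 the log2 difference was 4.89 (SE 2.65, adjusted p = 0.310), which rests on 2 counts in each DMSO group, and DESeq2 called it (adjusted p = 0.0210). CXCL3 passed without DMSO library 1 at 24 h (log2FC 0.68, adjusted p = 0.0448). Between DMSO cells at 24 h and at 4 h no member and no other gene was called by edgeR or DESeq2 (0% called), with 174 genes and 0 members at an unadjusted p under 0.05. Between DEX with DMSO at 24 h and at 4 h, compared after the data were seen, CXCL13 and CXCL3 were higher and CXCL16 lower at 24 h (23.1% of all genes called). CXCL3 was 1.38-fold higher (adjusted p = 0.0327), which was lost without DEX and DMSO library 1 or 2 at 4 h or library 2 at 24 h (adjusted p = 0.0860 to 0.177), without all libraries numbered 2 (0.451) and by DESeq2 (0.0573). CXCL16 was 1.66-fold lower (adjusted p = 0.0473), lost without any 1 of the 6 libraries (adjusted p = 0.0579 to 0.123), without all numbered 2 (0.216) and under each other scaling or without the filter (0.0511 to 0.0687).

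Inhibition of SWI/SNF alone raised CXCL3 at 4 h. It was at 19.3, 16.1 and 18.4 CPM with BRM014 and at 5.37, 5.16 and 6.17 CPM with DMSO (3.23-fold higher, log2FC 1.69, SE 0.137, adjusted p = 1.76e-07), with a wide gap between the groups. Its neighbour CXCL2 was at 37.5, 27.7 and 26.9 CPM with BRM014 and at 20.4, 17.6 and 21.5 CPM with DMSO, also without overlap, and did not pass (log2FC 0.63, adjusted p = 0.0687). CXCL1 was at 232, 194 and 195 CPM with BRM014 and at 212, 187 and 192 CPM with DMSO, which overlapped. CXCL8 was at 25.3, 11.7 and 7.35 CPM with BRM014 and did not pass (log2FC -1.001, SE 0.443, adjusted p = 0.189), but without BRM014 library 1 it did (log2FC -1.63, adjusted p = 0.0348). Of the 8 tested members 1 was higher and none lower (8.68% of all genes called), with a median log2FC of 0.09 against 0.01 over all genes. With the replicate block CXCL2 was also called higher (log2FC 0.61, adjusted p = 0.0454) and CXCL8 lower (-1.05, 0.0407). The numbers did not pair these libraries by the rule given below.

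After 24 h of BRM014 the direction was downward. CXCL8 was at 2.49, 2.93 and 3.41 CPM with BRM014 and at 44.5, 23.9 and 16.4 CPM with DMSO (9.57-fold lower, log2FC -3.26, SE 0.491, adjusted p = 5.27e-05). CXCL1 was at 82.9, 91.7 and 76.3 CPM with BRM014 and at 228, 190.1 and 154 CPM with DMSO (2.28-fold lower, adjusted p = 8.76e-07). The BRM014 libraries of both genes stood below all DMSO libraries. CXCL2 fell 2.86-fold (adjusted p = 1.66e-05) and CCL2 2.67-fold (adjusted p = 5.99e-04). CCL20 was at 0 counts in all 3 BRM014 libraries and at 12, 5 and 3 counts with DMSO (adjusted p = 0.00811). With the whole BRM014 group set to 3 counts CCL20 was 6.16-fold lower. CXCL3, raised at 4 h, was at 4.84, 5.22 and 4.68 CPM with BRM014 and did not pass (log2FC -0.12, SE 0.138). In all 5 of 8 fell and none rose (31.5% of all genes called), with a median log2FC of -1.30 against 0.01 over all genes. Under scaling by library totals alone the median of all genes moved up by 0.14, and the 5 calls were the same in number.

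The difference between the times was tested directly after the data were seen. The effect of BRM014 at 24 h minus that at 4 h was lower for CXCL1 (log2 difference -1.26, SE 0.189, adjusted p = 1.31e-04), CXCL2 (-2.15, SE 0.302, adjusted p = 7.34e-05) and CXCL3 (-1.81, SE 0.194, adjusted p = 3.24e-06). It was lower for CCL2 too (-1.57, SE 0.390, adjusted p = 0.0126) and for CXCL8 (-2.26, SE 0.645, adjusted p = 0.0331). The CXCL8 value was lost without any of 7 of the 12 libraries: library 1 of BRM014 at 4 h, libraries 2 and 3 of DMSO at 4 h, each BRM014 library at 24 h and library 1 of DMSO at 24 h (adjusted p = 0.0540 to 0.104) or the filter (0.0591). Without all libraries numbered 2 neither CXCL8 (-2.31, adjusted p = 0.213) nor CCL2 (-1.19, 0.216) passed, and the count was 3. These 5 of 8 members were all lower (9.44% of all genes called).

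**Figure D2:**
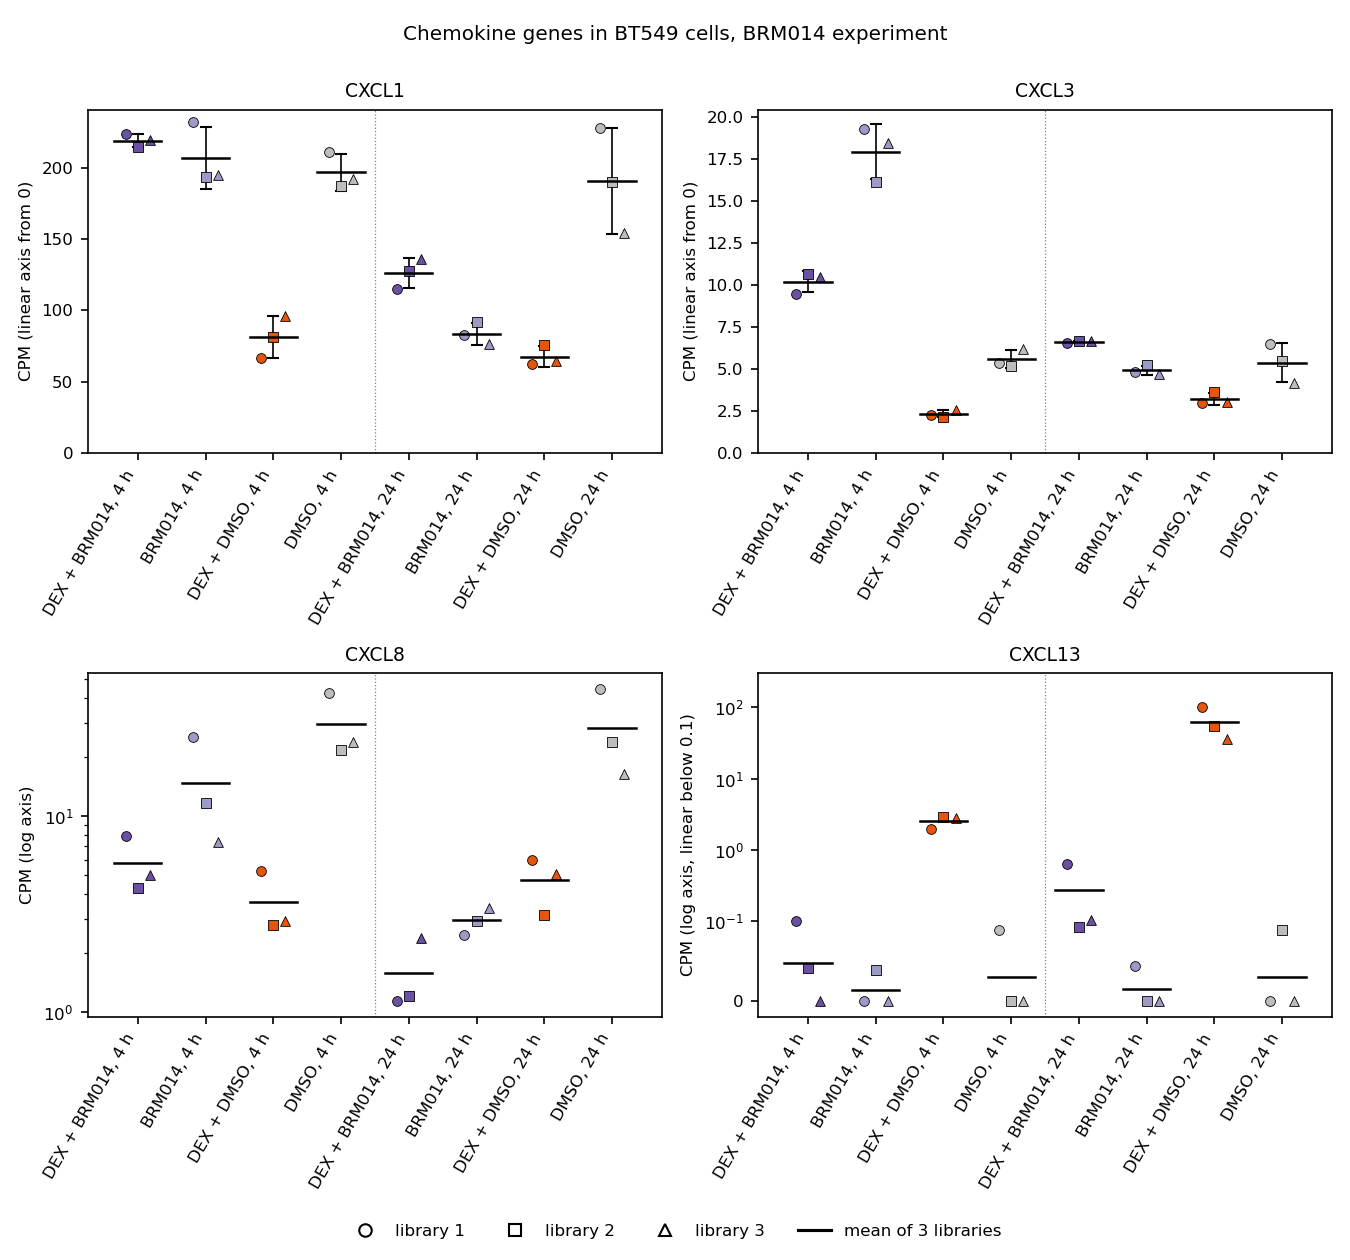
CPM of CXCL1, CXCL3, CXCL8 and CXCL13 (vertical axes, linear from 0 for CXCL1 and CXCL3, logarithmic for CXCL8, and logarithmic but linear below 0.1 for CXCL13) in each library of the 8 groups of the BRM014 experiment (horizontal axis); points are libraries, long lines are means of 3, and bars on the linear axes are SD. CXCL3 stands at 16.1 to 19.3 CPM with BRM014 for 4 h, above every other group, and CXCL13 reaches 35.6 to 100.2 CPM with DEX and DMSO for 24 h, while no other group exceeds 2.88 CPM.

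In cells that received BRM014, CXCL1 was not called lower with DEX. At 4 h CXCL1 was at 224, 215 and 219.6 CPM with DEX and BRM014 and at 232, 194 and 195 CPM with BRM014 (log2FC 0.08, SE 0.133). At 24 h CXCL1 was at 115, 128 and 136 CPM with DEX and BRM014 and at 82.9, 91.7 and 76.3 CPM with BRM014, 1.51-fold higher (adjusted p = 0.00379). Without the libraries numbered 2 the log2FC was 0.66 and its adjusted p 0.0501. So every DEX library was above the others at 24 h, the reverse of the order with DMSO. The test of the difference between the DEX effect with BRM014 and that with DMSO gave a log2 difference of 1.36 at 4 h (SE 0.189, adjusted p = 1.83e-04) and 2.09 at 24 h (SE 0.191, adjusted p = 7.08e-07). At 24 h it was also higher for CXCL2 (1.45, SE 0.306, adjusted p = 0.00511) and CXCL3 (1.16, SE 0.200, adjusted p = 8.14e-04), where the CXCL2 value did not pass without the libraries numbered 2 (1.47, adjusted p = 0.176). For CXCL8 the difference was 1.66 at both times and was not called (SE 0.653 and 0.711, adjusted p = 0.380 and 0.208). For CXCL13 at 24 h the adjusted p was 0.411 by edgeR and 0.00131 by DESeq2. At 4 h 1 of 8 members was called in this test (2.29% of all genes), and at 24 h 3 of 8, all higher (6.54%).

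**Figure D3:**
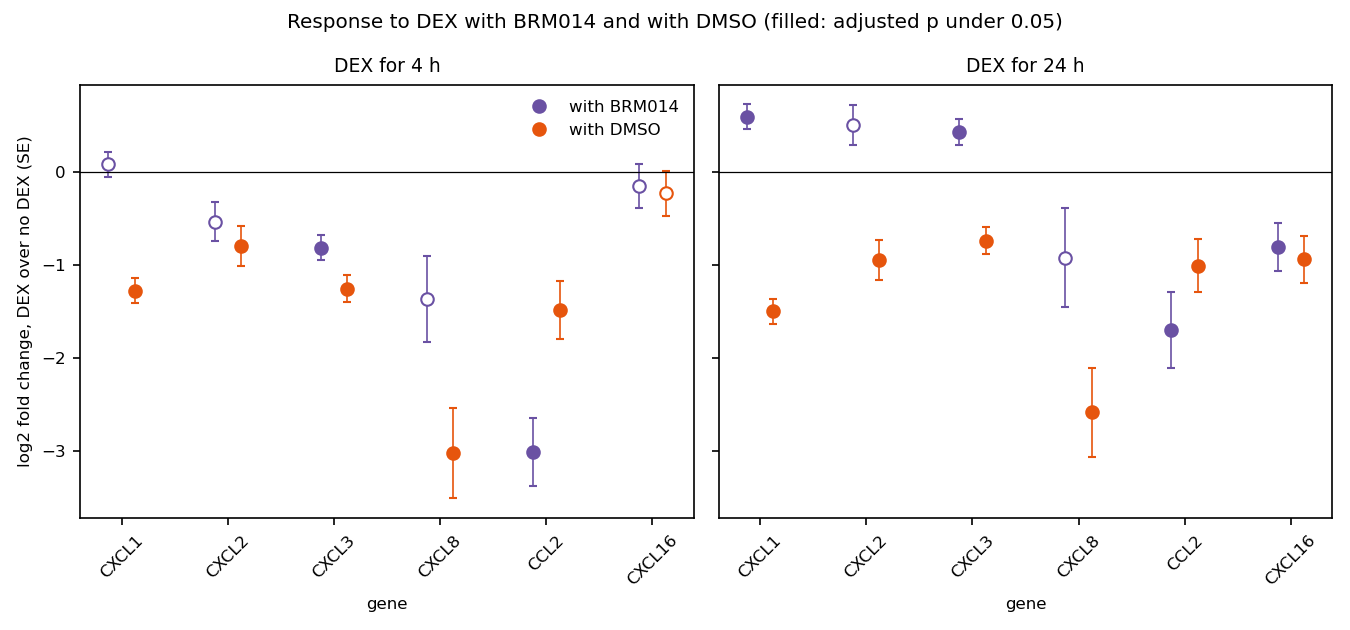
Log2 fold change of DEX over no DEX (vertical axis, bars are SE) for 6 chemokine genes (horizontal axis) with BRM014 and with DMSO, after 4 h and after 24 h; filled symbols were called at an adjusted p under 0.05. CXCL1 lies at 0.08 with BRM014 and -1.28 with DMSO at 4 h, and at 0.59 with BRM014 and -1.50 with DMSO at 24 h.

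Other members still fell with DEX in the presence of BRM014. CCL2 was at 0.151, 0.163 and 0.128 CPM with DEX and BRM014 at 4 h and at 0.758, 1.65 and 1.21 CPM with BRM014 (8.06-fold lower, adjusted p = 8.03e-06). By 24 h CCL2 was at 0.118, 0.232 and 0.106 CPM with DEX and BRM014 and at 0.436, 0.562 and 0.516 CPM with BRM014 (3.24-fold lower, adjusted p = 0.00663). CCL2 rested on 10 counts over each of those DEX groups. CXCL3 was at 9.46, 10.7 and 10.5 CPM with DEX and BRM014 at 4 h and at 19.3, 16.1 and 18.4 CPM with BRM014 (1.76-fold lower, adjusted p = 2.81e-04). At 24 h CXCL3 rose 1.34-fold (adjusted p = 0.0454), a call lost without any 1 of the 6 libraries (adjusted p = 0.0565 to 0.118), without all numbered 2 (0.2098), with library totals alone (0.0786), without the filter (0.105) and by DESeq2 (0.0556). CXCL8 was at 7.90, 4.27 and 5.03 CPM with DEX and BRM014 at 4 h, and its log2FC of -1.36 was not called (adjusted p = 0.105). It passed without BRM014 library 3 (adjusted p = 0.0410), by DESeq2 (0.0250) and with the replicate block (0.0227), although the numbers did not pair these libraries. In all 2 of 8 fell and none rose at 4 h (6.12% of all genes called).

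At 24 h with BRM014, 3 of 8 members rose and 2 fell with DEX (13.8% of all genes called). Without the libraries numbered 2 the count was 1. CXCL16 was at 2.36, 1.67 and 1.33 CPM with DEX and BRM014 and at 3.53, 3.01 and 2.98 CPM with BRM014 (1.75-fold lower, adjusted p = 0.0435). It was lost without any BRM014 library or without library 2 or 3 of DEX and BRM014 (adjusted p = 0.0637 to 0.156), and without all numbered 2 (0.196). CCL20 held 6, 5 and 4 counts with DEX and BRM014 against 0 in all 3 BRM014 libraries (adjusted p = 0.0264), 5.55-fold higher with the BRM014 group set to 3 counts. That call was lost without any BRM014 library or library 1 or 2 of DEX and BRM014 (adjusted p = 0.0555 to 0.0690), and without all numbered 2 (0.129). CXCL13 held 16, 2 and 2 counts with DEX and BRM014 against 1, 0 and 0 with BRM014, a ratio of 22.2 (interval 3.55 to 920). It did not pass (adjusted p = 0.0616), but did with the replicate block (adjusted p = 0.0415) and without library 2 or 3 of DEX and BRM014 (0.0474 and 0.0486) and by DESeq2 (0.00891). Library 1 held most of those counts.

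Set against DEX with DMSO, DEX with BRM014 gave higher CXCL1, CXCL2 and CXCL3 and almost no CXCL13 at 4 h. CXCL3 was 4.38-fold higher (adjusted p = 1.65e-09), CXCL1 2.70-fold (adjusted p = 1.74e-07) and CXCL2 1.85-fold (adjusted p = 0.00675), each without overlap. The remaining ELR gene, CXCL8, was not called (log2FC 0.66, SE 0.480, adjusted p = 0.502), and its groups overlapped. CXCL13 held 2, 1 and 0 counts with DEX and BRM014 against 39, 68 and 67 with DEX and DMSO, a ratio of 0.0169 (interval 0.00345 to 0.0502, adjusted p = 4.43e-05). CCL2 fell 2.60-fold (adjusted p = 0.0448), which was lost without any of 5 libraries, all but DEX and DMSO library 3 (adjusted p = 0.0943 to 0.150), with library totals alone (0.0536), without the filter (0.0853) and by DESeq2 (0.109). Without the libraries numbered 2 neither CCL2 (adjusted p = 0.209) nor CXCL2 (0.147) passed, and the count was 3. These are 3 members higher and 2 lower of 8 (12.8% of all genes called). Of the lower members, CXCL13 entered the test through the DEX and DMSO libraries, so a lower value was favoured beforehand. CXCL12, which was not tested, held 3, 4 and 0 counts with DEX and BRM014 at 4 h. It was at 0 in all libraries with BRM014 or with DEX and DMSO, so the groups overlapped at 0. With the groups at 0 set to 3 counts the ratios were 2.36 and 2.29.

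At 24 h, 2 of 8 members were higher and 4 lower with DEX and BRM014 than with DEX and DMSO (35.5% of all genes called). Of the lower members, CXCL13 and CCL20 entered the test through the DEX and DMSO libraries, so a lower value was favoured beforehand. CXCL13 was at 0.629, 0.0930 and 0.106 CPM with DEX and BRM014 and at 100.2, 54.1 and 35.6 CPM with DEX and DMSO (209-fold lower, SE of the log2FC 0.549, adjusted p = 3.27e-09). CXCL3 was 2.06-fold higher (adjusted p = 9.90e-06) and CXCL1 1.87-fold higher (adjusted p = 2.28e-05), and CCL2 was 4.31-fold lower (adjusted p = 3.43e-04). CXCL8 was at 1.14, 1.21 and 2.39 CPM with DEX and BRM014 and at 5.98, 3.13 and 5.09 CPM with DEX and DMSO (3.03-fold lower, adjusted p = 0.0247). It did not pass without library 1 or 2 of DEX and BRM014 or library 1 or 3 of DEX and DMSO (adjusted p = 0.0564 to 0.0981), nor without all libraries numbered 2 (0.159). CCL20 fell 3.28-fold (adjusted p = 0.0411), lost without any of 5 libraries, all but DEX and DMSO library 3 (adjusted p = 0.0841 to 0.155), without all numbered 2 (0.161) and with library totals alone (0.0530). The median log2FC of the tested members was -0.95 there, and 0.42 at 4 h.

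GATA6 depletion lowered CXCL1 and raised single other members. With vehicle CXCL1 was at 234, 196 and 200.4 CPM in siGATA6 and at 267.1, 297.8 and 268.1 CPM in siCtl cells (1.32-fold lower, log2FC -0.40, SE 0.0846, adjusted p = 0.00452). In the presence of DEX it was at 191, 168 and 157 CPM in siGATA6 and at 233, 250.3 and 219 CPM in siCtl cells (1.36-fold lower, adjusted p = 0.00265). The siGATA6 libraries were below the siCtl libraries in both. CCL2 was at 2.72, 2.41 and 3.04 CPM in siGATA6 and at 1.54, 1.29 and 1.99 CPM in siCtl cells with vehicle (1.61-fold higher, adjusted p = 0.0356). That was lost without library 1 or 3 of siGATA6 or library 1 or 2 of siCtl (adjusted p = 0.0685 to 0.130) and by DESeq2 (0.0680). With DEX CXCL16 was at 4.24, 3.20 and 5.17 CPM in siGATA6 and at 2.38, 2.02 and 3.02 CPM in siCtl cells (1.73-fold higher, adjusted p = 0.0125), lost without siCtl DEX library 2 or siGATA6 DEX library 3 (adjusted p = 0.0691 and 0.101).

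CXCL8 did not pass with siGATA6 (log2FC -0.14 with vehicle and -0.02 with DEX), except with vehicle without siGATA6 library 1 (log2FC -0.36, adjusted p = 0.00593). That library stood at 45.8 CPM, against 29.4 and 30.8 CPM in the other libraries of its group. CXCL3 and CXCL2 did not pass either. So 1 of 6 members was higher and 1 lower with vehicle (23.7% of all genes called), and likewise with DEX (22.6%). No difference in the effect of DEX between siGATA6 and siCtl cells was called for any of the 6 (0.338% of all genes called), with 0 members at an unadjusted p under 0.05 and 0 called by DESeq2. The difference for CXCL8 was 0.12 on the log2 scale (SE 0.272).

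FRA1 depletion raised CXCL8. With vehicle it was at 132, 105 and 128 CPM in siFRA1 and at 43.9, 64.2 and 57.7 CPM in siCtl cells (2.20-fold higher, log2FC 1.14, SE 0.204, adjusted p = 0.00231). After DEX the gene was at 22.3, 29.6 and 18.7 CPM in siFRA1 and at 11.8, 11.6 and 9.28 CPM in siCtl cells (2.16-fold higher, adjusted p = 0.00896). All siFRA1 libraries were above all siCtl libraries in both. CXCL1 was at 202, 168 and 217 CPM in siFRA1 and at 338.8, 353.7 and 259.2 CPM in siCtl cells with DEX (1.62-fold lower, adjusted p = 0.0278). It was lost without library 1 or 2 of either group (adjusted p = 0.0821 to 0.107) or the filter (0.0527). CCL20 was at 1.77, 3.12 and 2.40 CPM in siFRA1 and at 1.08, 1.14 and 0.782 CPM in siCtl cells with DEX (2.41-fold higher, adjusted p = 0.0362), lost without any of 5 libraries, all but siFRA1 library 1 (adjusted p = 0.0611 to 0.152). CXCL16 had a log2FC of 0.83 with vehicle (adjusted p = 0.105), and 0.80 with the replicate block, where it passed (adjusted p = 0.00207), as it did without siFRA1 library 2 (0.0427) and by DESeq2 (0.0494).

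With siFRA1, 1 of 7 tested members was higher and none lower with vehicle (10.8% of all genes called), and the count was 2 with the replicate block. With DEX 2 were higher and 1 lower (12.9%). JUN depletion changed CCL20 in DEX-treated cells, at 4.44, 1.95 and 3.10 CPM in siJUN and at 1.08, 1.14 and 0.782 CPM in siCtl cells (3.08-fold higher, adjusted p = 0.0117). The groups did not overlap, but the call did not hold without siJUN DEX library 1 or siCtl DEX library 3 (adjusted p = 0.0911 and 0.0568). That was 1 of 7 members (6.57% of all genes called). CXCL16 was at 12.7, 7.995 and 9.94 CPM in siJUN and at 4.22, 4.23 and 6.55 CPM in siCtl cells with DEX, also without overlap. It passed by DESeq2 (adjusted p = 0.0137) but not by edgeR without a block (0.0650). With the replicate block in edgeR CXCL16 (adjusted p = 1.80e-04) and CCL2 (0.0493) were higher, although the numbers did not pair these libraries by the rule given below. The deviations from the group means correlated at 0.0965 to 0.311 between same-numbered libraries and at -0.298 to 0.107 between the others, so the rule was narrowly missed. With vehicle edgeR without a block called none (6.82%), DESeq2 called none and 2 members had an unadjusted p under 0.05. Under the block, with the same limit on pairing, CXCL16 and CCL2 were called higher with vehicle (adjusted p = 0.00208 and 0.0272). CXCL8 was there at 77.4, 41.7 and 71.1 CPM in siJUN and at 43.9, 64.2 and 57.7 CPM in siCtl cells, which overlapped. EdgeR's test of the difference in the effect of DEX called no member and no other gene between siFRA1 and siCtl cells or between siJUN and siCtl cells (0% called in each). No member had an unadjusted p under 0.05 in either, among 302 and 378 genes that did, and DESeq2 called 0 members in both and 2 and 0 genes in all.

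**Figure D4:**
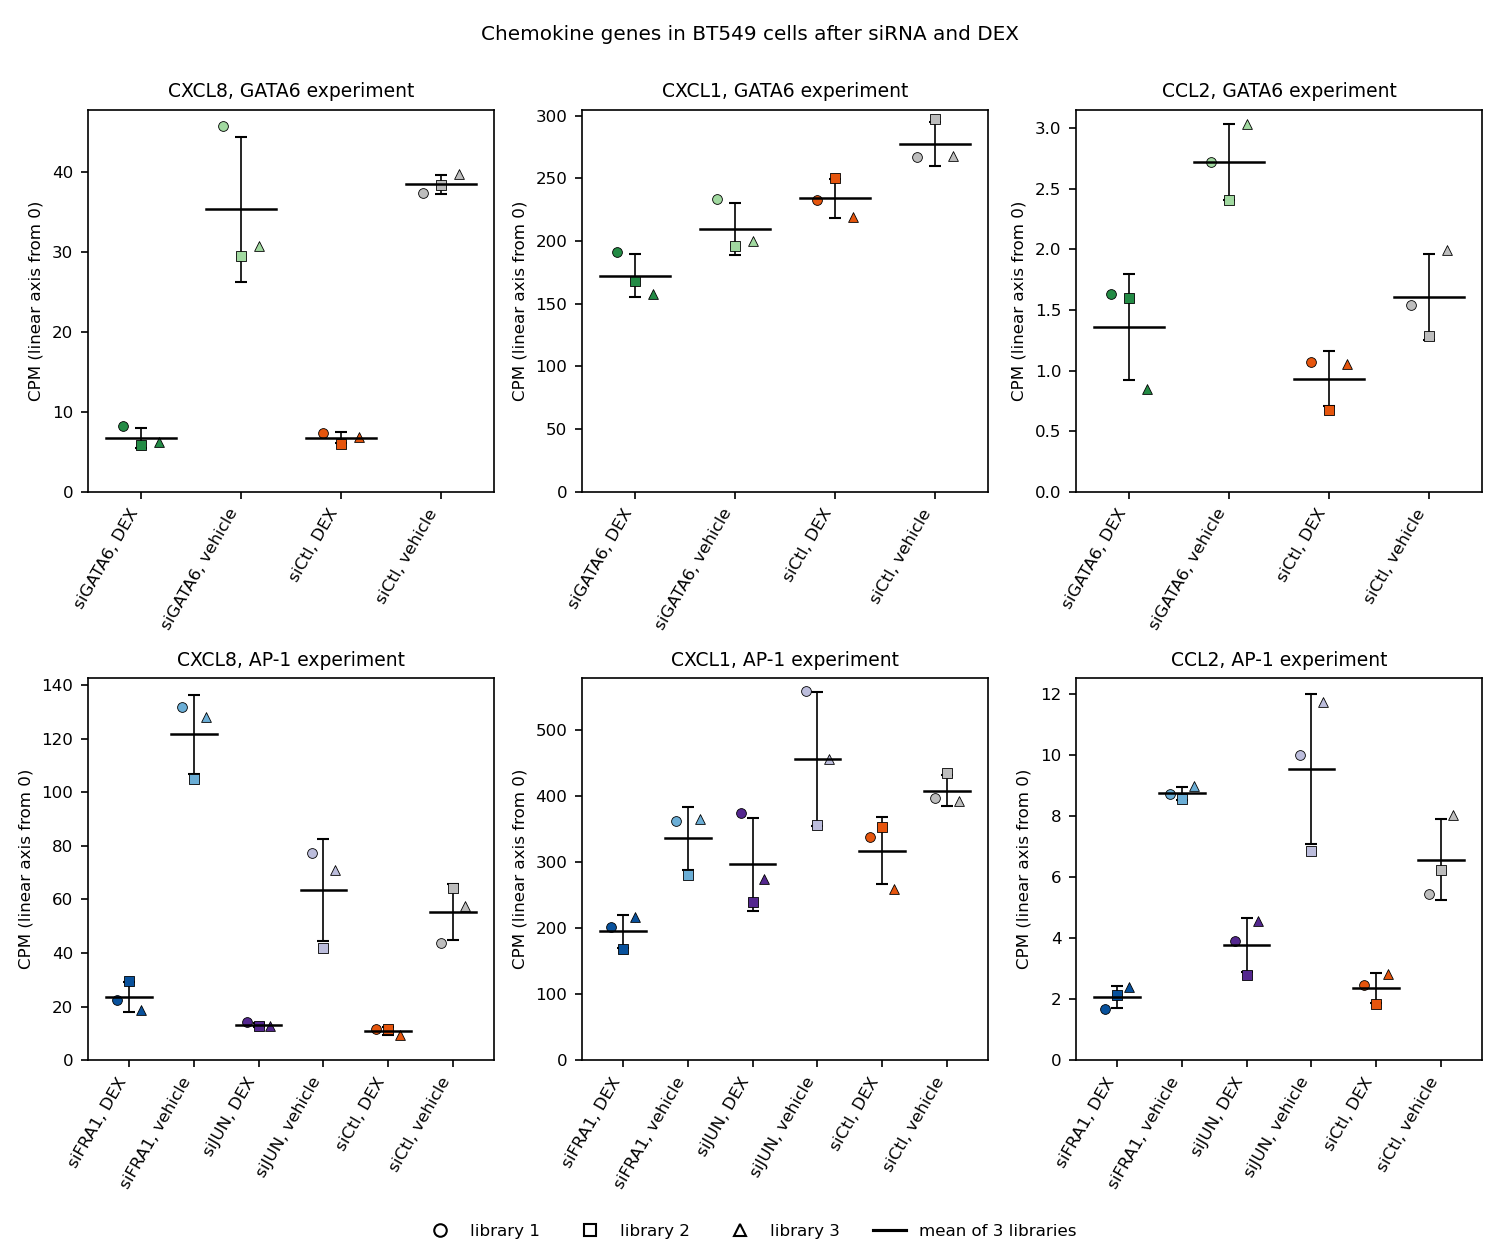
CPM (vertical axes, linear from 0) of CXCL8, CXCL1 and CCL2 in each library after siRNA with DEX or vehicle (horizontal axes), in the GATA6 experiment (upper panels) and the AP-1 experiment (lower panels); points are libraries, long lines are means of 3 and bars are SD. CXCL8 is lower with DEX for every siRNA, and siFRA1 with vehicle (105 to 132 CPM) stands above siCtl with vehicle (43.9 to 64.2 CPM).

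The rest of the chemokine system was read from lists of genes. Of 5 other CXC genes in the chromosome 4 cluster (CXCL5, CXCL6, PPBP, PF4 and PF4V1), 2 were tested in the GATA6 and AP-1 experiments and 3 in the BRM014 experiment. siGATA6 lowered both tested with vehicle (23.7% of all genes called), CXCL6 by 1.60 and CXCL5 by 0.98 on the log2 scale, and both with DEX (22.6%). DEX with DMSO for 24 h lowered 2 of 3 and raised 1 (25.6%), with CXCL6 at -1.49, CXCL5 at -0.998 and PF4, which encodes platelet factor 4, at 1.95. PF4 was not tested in the GATA6 experiment, and whether it passed the filter here only through the DEX libraries was not checked. BRM014 for 24 h lowered 2 of 3 and raised none (31.5%). Of 5 further CXC genes, CXCL10 alone was tested, in the AP-1 experiment. CXCL10, an interferon-induced ligand of CXCR3, rose with siFRA1 (log2FC 2.12 with vehicle and 2.77 with DEX) and with siJUN (3.55 and 3.88). Whether CXCL10 passed the filter only through the siFRA1 and siJUN libraries was not checked, so its rise may have been favoured beforehand. CCL5, the only one tested of 21 other CC, C and CX3C genes, rose with siFRA1 (1.48 and 1.64) and siJUN (1.84 and 1.82) as well. With vehicle and with DEX, 10.8% and 12.9% of all genes were called for siFRA1 and 6.82% and 6.57% for siJUN. The few receptors tested (2 or 3 of 23) included ACKR3, an atypical receptor that takes up CXCL12, which fell in all 9 DEX comparisons (log2FC -1.72 to -1.03).

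Among 16 genes of NF-kB subunits and regulators, all tested, DEX raised NFKBIA, which encodes the inhibitor IkBα, in all 9 DEX comparisons (log2FC 1.03 to 1.73). More of the list fell than rose in each of the 7 DEX comparisons without BRM014. At 2 h 3 rose and 7 fell in siGATA6 cells and 4 rose and 6 fell in siCtl cells (15.9% of all genes called in each). At 4 h with DMSO 3 of these 16 rose and 6 fell (12.5% of all genes called), and at 24 h with DMSO 2 rose and 5 fell (25.6%). BCL3, which encodes a nuclear member of the IkB family, had a log2FC of -2.09 in siGATA6 and -1.99 in siCtl cells at 2 h and of -1.15 with DMSO at 4 h. REL, which encodes the subunit c-Rel, fell by 1.05 on the log2 scale in siGATA6 cells at 2 h. At 24 h with DMSO the subunit genes RELB and NFKB2 were at -1.10 and -0.85. Of 7 AU-rich decay factor genes 3 rose and none fell at both times with DMSO (12.5% and 25.6% of all genes called), ZFP36 among them in all 9 DEX comparisons (1.43 to 2.06). BRM014 for 24 h lowered 9 of 10 tested genes of upstream cytokines and their receptors and raised none (31.5% of all genes called), with TLR2 at -3.75, IL6 at -2.78 and TNFRSF1B at -2.59. At 4 h it lowered 3 of the 10 (8.68%). These lists were described by counts alone.

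For members with a group mean of at least 5 CPM, the genes whose group means followed them most closely were sought by Pearson correlation of log2 CPM over the groups of an experiment. Over the 8 groups of the BRM014 experiment CXCL8 was closest to IFRD1 (r = 0.987), LIMA1 (0.986) and TMEM217 (0.983), and CXCL13 to IL17RE (0.994), CBLL1 (0.990) and LBH (0.990). There CXCL1 was closest to FHL2 (0.956), CXCL2 to TSG101 (0.974) and CXCL3 to BANP (0.975). Over the 6 groups of the AP-1 experiment CXCL8 was closest to ELMSAN1 (0.994), CCL2 to PRDM8 (0.992) and CXCL16 to HLA-B (0.992). These points share groups and libraries, the genes were picked as the closest of all tested, and no test was made.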

How the data were processed

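RNA for the 54 BT549 libraries was extracted with Tri-reagent and sequenced as paired ends, per the labels' protocols. These describe depletion of ribosomal RNA for all samples, whereas the AP-1 samples' own labels give polyA RNA. RN7SK, a small RNA made without a polyA tail, had group means of 82.1 to 101.8 CPM in the AP-1 experiment. Its group means were 0.880 to 8.66 CPM in the GATA6 and BRM014 experiments. Which preparation was used for the AP-1 libraries was not tested and not settled here. The authors deposited raw read counts by gene symbol, 1 table for each library; 1 further table equal to an AP-1 control was not used. The submitters' processing notes name featureCounts, SAMtools, bcl2fastq and DESeq2, and the builds hg38 and GRCh38. AP-1 counts came from primary STAR alignments, per the file headers. The aligner elsewhere, tool versions, annotation and strand setting were not given in the sources used here. In the AP-1 experiment the library number in each header differs from that of the deposited table, and each table was taken as its sample's.

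Each experiment was fitted with edgeR 4.0.16 (R 4.3.3, limma 3.58.1), with TMM scaling, filterByExpr, a mean per group and the robust quasi-likelihood test, two-sided, adjusted by Benjamini-Hochberg over 13897, 14547 and 13658 genes. The biological coefficient of variation was 5.57% for GATA6, 18.8% for BRM014 and 9.80% for AP-1. CPM used TMM-scaled totals. The method was tested on simulated data. Of the 28 comparisons, DEX with DMSO at 24 h against 4 h and the difference between the BRM014 effects at these times were added after the data were seen. Members and lists were chosen with earlier results of these data known. Every called member is named, whereas tested members without a call are named only in part. Of other lists at most the 3 called genes with the largest change per comparison are named, plus ranges for genes called in all DEX comparisons. Alternatives were DESeq2 1.42.0 and its size factors, library totals alone, no filter, a replicate block, each library left out and, chosen after seeing the data, all libraries numbered 2 of the BRM014 experiment left out.

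Same-numbered libraries were taken as paired where every correlation of their deviations from the group means was over 0.1. This held in the 4 comparisons of 2 groups in the GATA6 experiment (0.101 to 0.288), in 6 of the BRM014 experiment and in 3 of the AP-1 experiment (DEX in siFRA1 and siJUN cells, and siFRA1 with vehicle). In the other AP-1 comparisons the lowest correlation was 0.0539 to 0.0965. On the first component of the deviations library 3 was highest and library 2 lowest of its group in every AP-1 group. Over 54 pairs of replicates chi-square per degree of freedom, computed on counts, was 3.17 to 113.5, so no pair was a repeat. Replicates are called biological in the GATA6 and BRM014 labels, are not so called in the AP-1 labels, and come with no account of separate cultures. The p-values thus reflect the spread of these libraries only, which may be technical.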

Additional observations from a re-analysis of the deposited data

Results flagged for a closer look

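The effect of DEX differed between cells with BRM014 and cells with DMSO, by the test of the difference itself, for CXCL1 at 4 h (log2 difference 1.36) and 24 h (2.09) and for CXCL2 (1.45) and CXCL3 (1.16) at 24 h. The effect of BRM014 differed between 24 h and 4 h, in a test added after the data were seen, for CXCL1 (-1.26), CXCL2 (-2.15), CXCL3 (-1.81), CXCL8 (-2.26) and CCL2 (-1.57). In the BRM014 experiment library 1 was the highest of its group in 6 of 8 groups for CXCL8 and for CXCL2, in 7 of 8 for CXCL16 and in all 7 groups with any count for CCL20. The part of this in the results was not tested.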

How the results depend on the processing

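No member changed direction in a called result under any alternative. DESeq2's size factors moved no count of members called by over 1.5 times. In siCtl cells at 2 h of DEX the count of 2 was 4 with library totals alone, without the filter and with the replicate block. The replicate block gave 3 in place of 1 for BRM014 at 4 h, 5 in place of 3 for DEX in siJUN cells, 2 in place of 1 for siFRA1 with vehicle, 2 in place of 0 for siJUN with vehicle and 3 in place of 1 for siJUN with DEX. DESeq2 gave 1 in place of 2 for siGATA6 with vehicle, 1 in place of 0 for DEX at 24 h minus 4 h, 2 in place of 1 for siFRA1 with vehicle and 2 in place of 1 for siJUN with DEX. Without the libraries numbered 2, with fewer samples, 3 in place of 5 were called for BRM014 with DEX at 4 h, 1 in place of 5 for DEX with BRM014 at 24 h, 3 in place of 5 for BRM014 at 24 h minus 4 h and 1 in place of 3 for DEX with DMSO at 24 h against 4 h. The cause was not tested for the other settings.

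Leaving out 1 library at a time gave counts of 1 to 4 for DEX in siGATA6 cells, 1 to 2 for siGATA6 with vehicle and with DEX, 1 to 2 for BRM014 at 4 h, 2 to 4 for DEX with BRM014 at 24 h, 0 to 1 for DEX at 24 h minus 4 h, and 1 to 2 for DEX with DMSO at 24 h against 4 h. In the AP-1 experiment they were 2 to 4 for DEX in siFRA1 cells, 3 to 5 for DEX in siJUN cells, 1 to 2 for siFRA1 with vehicle and with DEX, and 0 to 1 for siJUN with DEX. The replicate block changed no other call than those named in the report or, where the numbers do not pair the libraries, the counts above and CXCL3 with DEX in siCtl cells of the AP-1 experiment (adjusted p = 0.0439), CXCL8 with DEX and BRM014 at 4 h (0.0227) and CXCL16 with siFRA1 and DEX (0.0101).

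Over all genes the block moved, in the AP-1 experiment, 752, 673 and 777 calls of DEX in siCtl, siFRA1 and siJUN cells to 1330, 1119 and 1436. Calls moved to 3357 against 1477 for siFRA1 with vehicle, to 3621 against 1759 for siFRA1 with DEX, to 2550 against 932 for siJUN with vehicle and to 2343 against 898 for siJUN with DEX, and to 6 against 0 for each difference of the DEX effect there. The block gave 1498 against 952 calls for the BRM014 by DEX difference at 24 h and 1945 against 1294 for DEX at 24 h minus 4 h. The siGATA6 by DEX difference had 95 calls without the filter and 88 by DESeq2, against 47. Leaving out the libraries numbered 2, which leaves fewer samples, lowered the calls over all genes in each of 13 comparisons by over 1.5 times, among them to 1065 against 1825 for DEX with DMSO at 4 h, 1945 against 3717 at 24 h, 383 against 1262 for BRM014 at 4 h and 3036 against 4589 at 24 h. Library totals alone moved the median of all genes by over 0.1 for BRM014 at 24 h (0.14) and for its difference from 4 h (0.14). It changed the share of higher calls by over 10 percentage points in comparisons such as DEX at 2 h in siCtl cells, 39.7% against 54.8%. With 3 libraries a group and totals of 10186607 to 30530736 counts, members under about 1 CPM (CCL2 with BRM014, CCL20, CXCL12 and most CXCL13 values) rest on few counts. For them a missing call says little.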
